A study of Homo sapiens with 6 samples.

Results

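Keratins are the intermediate filament proteins of epithelial cells, and their genes were followed here in T24 cells, a human bladder cancer line. The members are all genes whose symbol is KRT followed by a number, with or without a closing A, B or C, which took 55 of the 58735 genes in the deposited table. Pseudogenes, antisense genes and keratin-associated proteins are not among them. RNA sequencing was carried out on 3 libraries of control cells, which carry an empty vector and are labelled sgNC, and on 3 libraries labelled sgOTUD1, which the series describes as OTUD1 knockout cells. No drug, time course or further genotype separates the groups, and neither the guide sequence nor whether the cells are 1 clone or a pool is given in the sources used here. Whether replicates are separate cultures is likewise not stated. The p-values therefore set group differences against the spread among these libraries alone. That spread may be technical only, so the p-values need not extend to new cultures. Expression was deposited as FPKM, a fragment count normalised to exon length and to a scale for each library. That scale was 1.04 to 1.06 times the library's reads in sgNC and 0.957 to 0.969 times under the sgOTUD1 label. A smaller scale gives a higher FPKM. Between 16697370 and 17191933 reads per library stood behind the values.

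Keratin filaments are built from heterodimers of 1 acidic type I keratin and 1 basic type II keratin, so a cell makes members of both types. Different pairs mark different epithelia: KRT5 with KRT14 marks the basal layer of stratified epithelia and of the urothelium, KRT8 with KRT18 simple epithelia and all urothelial layers, and KRT6 with KRT16 and KRT17 activated, healing or hyperproliferative epithelium. A further large group, the hair keratins, hardens hair and nail. Bladder cancers are commonly divided into luminal and basal or squamous types partly by which of these keratins they carry.

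OTUD1, the deubiquitinase gene named on the label, did not fall under the sgOTUD1 label. Its FPKM was 13.9, 15.6 and 14.6 in sgNC libraries 1 to 3 and 16.2, 17.9 and 17.1 in the libraries labelled sgOTUD1. The groups did not overlap, with the sgOTUD1 label on the higher side (log2 fold change 0.20, SE 0.054, limma adjusted p = 0.0167, two-sided exact permutation p = 0.1, the smallest that 3 against 3 libraries allow). That limma call was lost without sgNC 1 (log2 fold change 0.17, adjusted p = 0.0566), without sgOTUD1 2 (0.17, adjusted p = 0.0552) and under every other scaling tried, and with the relation to exon length described below divided out the value was -0.06. A small insertion or deletion need not lower a transcript, so the level does not check the label.

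The libraries carried epithelial markers. EPCAM, an epithelial adhesion protein, was at 68.1 FPKM in sgNC and CDH1, E-cadherin, at 69.1 FPKM, while the urothelial plaque gene UPK3A was at 0 in all 6 libraries. T24 cells are usually described as mesenchymal-like, with little E-cadherin. Among the mesenchymal markers ZEB1, a repressor of E-cadherin, was at 0.0461 FPKM in sgNC. The 7 listed mesenchymal markers together reached 219.8 to 229 FPKM there, so others of them were expressed. Whether the cells are T24 rests on the labels and was not tested. CLDN4 and EPCAM were higher and CDH1 and GRHL2 lower among the epithelial markers, of which 4 of 9 tested were called higher and 3 lower (by limma, as described below, where 31.2% of all genes were higher and 24.7% lower), and their summed FPKM ranged from 283 to 292 in sgNC and from 298 to 299 under the sgOTUD1 label. Mesenchymal markers had 3 of 5 tested higher and 2 lower, with summed FPKM of 219.8 to 229 in sgNC and 167 to 173 under the sgOTUD1 label. Markers of other cell types were low. Fibroblast markers summed to 9.50 to 10.1 and 7.15 to 7.32 FPKM (2 of 2 tested lower), endothelial markers to 4.37 to 4.69 and 1.57 to 1.80 (2 of 2 lower), leukocyte markers to 1.04 to 1.37 and 0.483 to 0.599 (1 of 1 lower) and melanocyte markers to 0.689 to 0.992 and 0.816 to 0.881 (1 tested, not called). In these lists PTPRC (leukocytes), KDR (endothelium) and COL3A1, PDGFRB and LUM (fibroblasts) were at 0 in every library. The other listed fibroblast, endothelial and leukocyte markers each had reads in at least 1 library. All 13 mitochondrial mRNAs, taken as a sign of RNA state, were lower in the libraries labelled sgOTUD1 (median log2 fold change -1.26), and the part of that shift in the keratin values was not tested.

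Of the 55 keratin genes, 23 had a mean of at least 0.5 FPKM over the 6 libraries and were tested. In the libraries labelled sgOTUD1, 9 of the 23 were called higher and 8 lower by limma at an adjusted p under 0.05, and 6 were not called. The same rule called 31.2% of all 14658 genes tested higher and 24.7% lower, 55.9% in either direction, against 39.1% and 34.8% of the tested keratins, so calls in both directions were common throughout these libraries. The median log2 fold change was 0.16 over the tested keratins and 0.03 over all genes tested. For 10 keratins all 3 libraries labelled sgOTUD1 lay above all 3 sgNC libraries, and for 9 all lay below, against 34.9% and 29.1% of all genes tested (64% in either direction). In bulk RNA, fewer cells making a keratin and less of its RNA per cell cannot be told apart.

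On the deposited scale, the direction went with the level of the gene. With the corrections for exon length described below, the abundant KRT19 was called lower, as was KRT7 with the correction by principal transcript. As deposited, all 9 keratins that rose were among the 15 with a mean of at least 5 FPKM, of which 2 fell. Of the 8 tested keratins under 5 FPKM, limma called 0 higher, also at an unadjusted p under 0.05, as did limma-voom after adjustment, and 6 were called lower. Among all genes, 47.6% of those at 5 FPKM or more were called higher and 23.9% lower, and 16.1% of those under 5 FPKM were called higher and 25.4% lower. The 3 low keratins KRT23, KRT6B and KRT74 passed the minimum only through their sgNC libraries, which fixes the direction that such a gene can show.

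**Figure D1:**
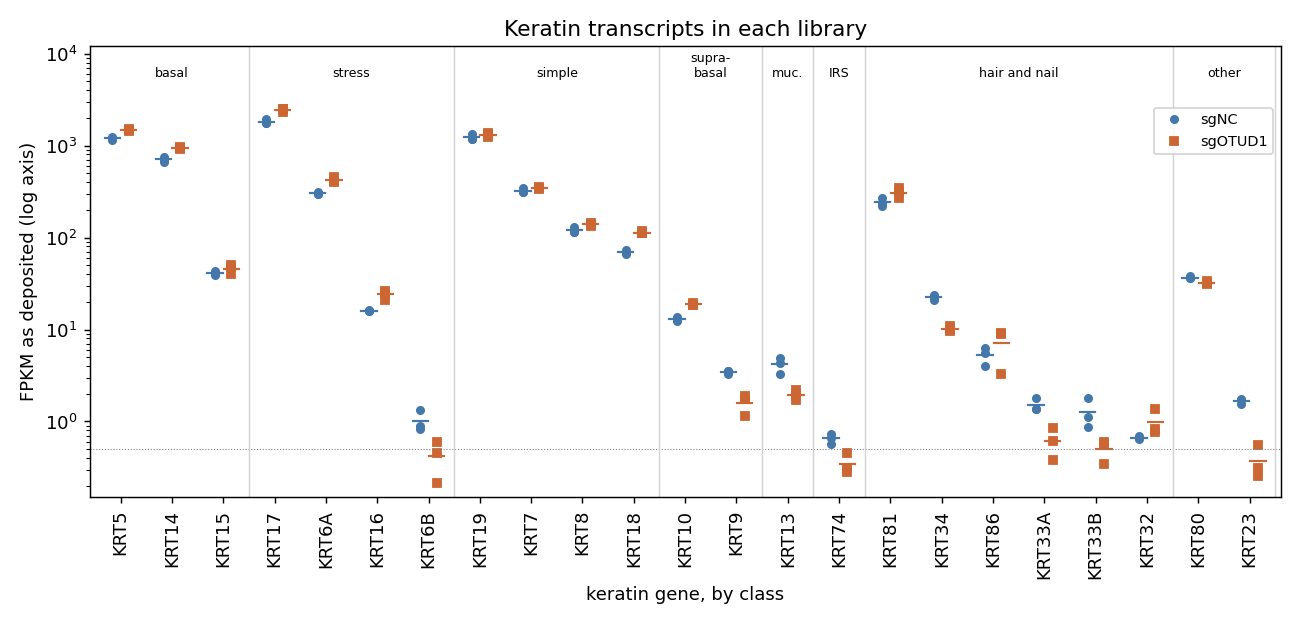
FPKM of the 23 tested keratin genes in each library on a log axis, grouped by class ("muc." is mucosal, "IRS" the inner root sheath of the hair follicle), with sgNC as circles, the libraries labelled sgOTUD1 as squares, group means as short lines and the minimum mean of 0.5 FPKM dotted. Levels run from over 1000 FPKM for KRT17, KRT5 and KRT19 to under 1 for KRT74, and the genes with clearly lower squares lie mostly in the lower part of the plot.

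Keratin genes are short, and fold changes in these libraries were related to exon length. Over 11372 protein-coding genes the log2 fold change dropped by 0.153 per doubling of exon length, from a median of 0.25 over the shortest genes (up to 3243 nt) to -0.15 over the longest (from 7456 nt). Of the tested keratins 18 lay in the shortest bin, 5 in the middle and 0 in the longest. For keratins of at least 5 FPKM, values with the length relation divided out are given below where they end a call, turn a sign or differ by over 1.5 times. With that correction 7 keratins were called higher and 10 lower (all genes, 21.4% and 31.8%), and the median of the keratins was -0.04. With the same correction by the length of the principal transcript the counts were 7 and 11 (all genes, 20% and 31.7%).

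Scaling between libraries moved the balance of calls, in keratins and in all genes. Median-of-ratios rescaling gave 8 keratins higher and 9 lower (all genes, 27.3% and 28.3%). Rescaling every library to the same total (TPM) gave 7 and 9 (21.4% and 34.7%), and limma-voom on the recovered reads 8 and 9 (23.6% and 36.2%). A minimum of 5 FPKM left 15 keratins tested, 9 higher and 2 lower (49.1% and 24.9%). Changes of single keratins below are on the deposited scale, and other scalings are named where they change a call, while values that turned sign are listed in full in the closing section.

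In the genome the members lie in a pair of clusters, on hg38 with GENCODE 29 annotation. On chromosome 12, 27 genes span 52168996 to 52952901 and hold all 26 type II genes and the type I gene KRT18. On chromosome 17, 28 type I genes span 40654665 to 41624842, all on the minus strand. Some called genes of the same direction stood side by side. KRT33A, KRT33B and KRT34, which are adjacent, were all lower, and KRT14, KRT16 and KRT17, adjacent at the other end of the same cluster, were all higher. KRT9, which was lower, is the next gene beside KRT14, with 10220 bases between them. On chromosome 12 KRT6A and KRT5 are neighbours and were both higher, while KRT6B, which lies 1 gene beyond them past KRT6C, was lower. No test of neighbourhood was made.

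**Figure D2:**
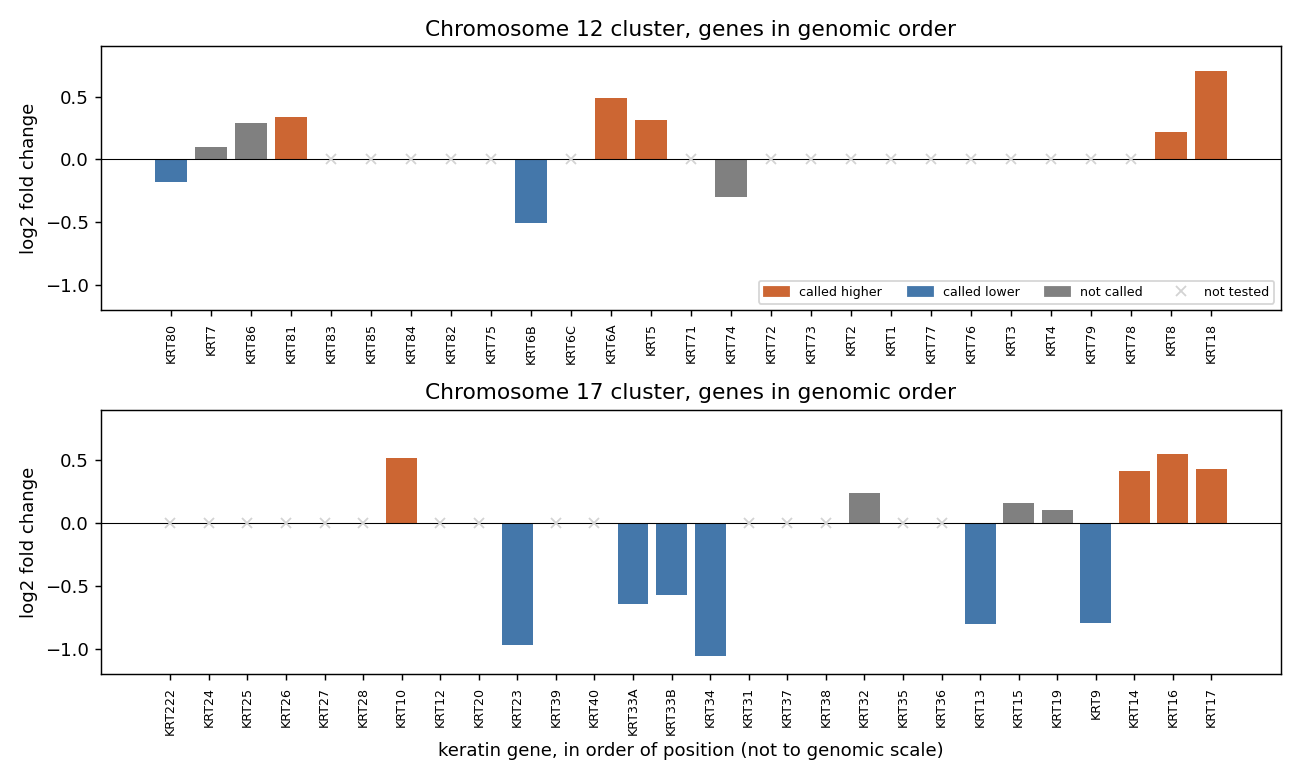
Log2 fold change of libraries labelled sgOTUD1 over sgNC for each keratin gene in the order of the genes along the chromosome 12 cluster (top) and the chromosome 17 cluster (bottom), on log2(FPKM + 1). Orange bars were called higher, blue bars lower, grey bars not called, and crosses mark the 32 genes that were not tested; the 3 neighbours KRT33A, KRT33B and KRT34 point down and the 3 neighbours KRT14, KRT16 and KRT17 point up.

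Promoter letters are shown for called genes of both directions. Promoters of 34 keratin genes, 9 of them tested, were matched in the RefSeq promoter table (GRCh38.p14). The 250 bases before the start are printed for the 3 neighbouring hair keratins that were lower and for KRT10 and KRT5, which were higher, with TATAAA in capitals; each is written 5′ to 3′ on the gene's own strand.
KRT33A (chr17:41350829-41351078, minus strand): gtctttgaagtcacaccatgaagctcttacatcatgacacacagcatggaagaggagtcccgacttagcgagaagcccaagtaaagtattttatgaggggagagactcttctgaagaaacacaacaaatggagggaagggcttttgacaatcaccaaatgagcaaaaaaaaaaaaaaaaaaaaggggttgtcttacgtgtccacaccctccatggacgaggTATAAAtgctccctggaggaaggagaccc
KRT33B (chr17:41369814-41370063, minus strand): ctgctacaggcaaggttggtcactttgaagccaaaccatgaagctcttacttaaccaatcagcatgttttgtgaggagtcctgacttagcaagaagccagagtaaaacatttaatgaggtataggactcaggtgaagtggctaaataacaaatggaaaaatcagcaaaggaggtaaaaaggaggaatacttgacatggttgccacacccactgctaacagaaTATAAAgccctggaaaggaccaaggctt
KRT34 (chr17:41382307-41382556, minus strand): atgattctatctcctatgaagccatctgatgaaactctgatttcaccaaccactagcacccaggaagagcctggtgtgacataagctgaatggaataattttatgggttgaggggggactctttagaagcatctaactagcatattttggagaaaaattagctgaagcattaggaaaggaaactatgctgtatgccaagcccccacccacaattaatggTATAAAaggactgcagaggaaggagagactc
KRT10 (chr17:40822615-40822864, minus strand): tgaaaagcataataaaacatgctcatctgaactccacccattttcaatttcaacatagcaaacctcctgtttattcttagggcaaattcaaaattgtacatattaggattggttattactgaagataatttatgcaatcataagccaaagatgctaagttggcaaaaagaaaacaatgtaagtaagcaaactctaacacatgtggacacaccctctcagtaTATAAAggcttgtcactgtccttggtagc
KRT5 (chr12:52520395-52520644, minus strand): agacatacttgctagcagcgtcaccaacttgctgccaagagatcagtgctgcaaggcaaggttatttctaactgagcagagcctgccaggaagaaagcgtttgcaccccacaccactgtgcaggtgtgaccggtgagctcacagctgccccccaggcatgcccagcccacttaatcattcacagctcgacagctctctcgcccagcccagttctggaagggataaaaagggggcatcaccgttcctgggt
TATAAA, searched on both strands, starts at position -29 in KRT33A, -28 in KRT33B, -31 in KRT34 and -29 in KRT10, counted back from the first transcribed base, and KRT5 has no match. Taking the promoter listed first for each gene, the letters were in 20 of the 34 keratin promoters, in 4 of the 9 tested ones and in 11.1% of all 27305 promoters, so the motif stood in genes of both directions. Compared position by position without gaps, KRT33A and KRT33B had 32.0% of bases in common, and KRT10 and KRT33A 29.6%. Both KRT33A and KRT33B hold the letters ccatgaagctcttac, but at different positions, and such an offset lowers this value. It therefore does not measure how alike the promoters are, and no alignment was made. TGANTCA, the AP-1 motif, was in none of the 34 and in 6.60% of all promoters on either strand. GGGCGG was in 4 of the 34, among the tested ones only at position -169 of KRT9, and in 42.3% of all. GAANNTTC, a pair of heat shock element units, was in 1 of the 34 and in 5.85% of all. Further promoters listed for KRT40, which was not tested, hold TATAAA and GAANNTTC and are not in these counts. A match or its absence describes these letters in these windows alone.

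Among the basal keratins, KRT5 and KRT14 rose together and KRT15 was not called. KRT5 (ENSG00000186081, chromosome 12, 52514575 to 52520687, minus strand), the type II keratin of basal cells, was at 1195, 1159 and 1230.5 FPKM in sgNC, against 1454, 1532 and 1462 FPKM in the libraries labelled sgOTUD1. All 3 libraries of the latter group were above all of sgNC. The means were 1195 ± 35.7 and 1483 ± 43.0 FPKM (SD, n = 3; log2 fold change 0.31, SE 0.036, limma adjusted p = 0.000336).

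KRT14 (ENSG00000186847, chromosome 17, 41582279 to 41586921, minus strand), its type I partner, was at 667, 699.8 and 755 FPKM in sgNC, against 914, 964 and 949 FPKM in the libraries labelled sgOTUD1. The groups were again apart, from 707 ± 44.1 to 943 ± 25.8 FPKM (log2 fold change 0.42, SE 0.049, limma adjusted p = 0.000394). With the length relation divided out KRT14 was no longer called (0.07, adjusted p = 0.112, and 0.09, adjusted p = 0.0666, by principal transcript), while KRT5 was (0.15, adjusted p = 0.00341). KRT15 (ENSG00000171346), a type I keratin of basal and stem-like epithelial cells, was at 39.6, 40.2 and 42.8 FPKM in sgNC, against 40.5, 49.7 and 47.7 FPKM in the libraries labelled sgOTUD1. Library 1 of the sgOTUD1 label lay within the sgNC range and the other two above it (log2 fold change 0.16, SE 0.077, adjusted p = 0.114), and without that library KRT15 was called higher (0.25, adjusted p = 0.00634), as it was with the correction by principal transcript (0.25, adjusted p = 0.0490), while TPM put it at 0.01.

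The stress or activation keratins held the most abundant keratin transcript and rose apart from KRT6B. KRT17 (ENSG00000128422, chromosome 17, 41619441 to 41624842, minus strand), a type I keratin induced in wounds and many carcinomas, was at 1769.99, 1742 and 1941 FPKM in sgNC. It was at 2343, 2505 and 2480.3 FPKM in the libraries labelled sgOTUD1, above every sgNC library. The means were 1818 ± 108 and 2443 ± 87.2 FPKM (SD, n = 3), 1.34 times as high (log2 fold change 0.43, SE 0.049, limma adjusted p = 0.000354).

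KRT6A (ENSG00000205420, chromosome 12, 52487174 to 52493257, minus strand), the main type II keratin of activated keratinocytes, was at 294, 295 and 316 FPKM in sgNC, against 404, 453 and 414 FPKM in the libraries labelled sgOTUD1. Every library of the second group was higher (log2 fold change 0.49, SE 0.053, limma adjusted p = 0.000253) between means of 302 ± 12.7 and 424 ± 26.1 FPKM. KRT16 (ENSG00000186832, chromosome 17, 41609778 to 41615899, minus strand), the type I partner of KRT6 proteins, was at 15.8, 16.1 and 16.4 FPKM in sgNC, against 20.8, 25.2 and 26.4 FPKM in the libraries labelled sgOTUD1. The sgNC libraries lay close together and the others were higher and more spread, from 16.1 ± 0.276 to 24.2 ± 2.95 FPKM (log2 fold change 0.55, SE 0.083, limma adjusted p = 0.0012). Of the 100-base windows in KRT16 transcripts 4.69% also occur in other genes, first among them KRT14. Mean reads were 28592 and 35284 for KRT14 (sgNC first), against 705 and 981 for KRT16. How reads were divided between these genes is therefore uncertain.

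KRT6B, a near copy of KRT6A, went the other way at a far lower level, from 1.02 ± 0.280 to 0.426 ± 0.196 FPKM (log2 fold change -0.50, SE 0.15, limma adjusted p = 0.0248). Its sgNC libraries spanned 0.827 to 1.34 FPKM and the others 0.216 to 0.605, with no overlap. That call was lost when any 1 of 3 libraries was left out, sgNC 2 (adjusted p = 0.0770), sgOTUD1 2 (0.0663) or sgOTUD1 3 (0.0527). With no minimum on FPKM it was lost too (limma adjusted p = 0.0560). Of the 100-base windows in KRT6B transcripts 24.6% also occur in other genes, mostly KRT6C and KRT6A, and 13.6% of those in KRT6A do, so how reads were divided between these copies is uncertain. KRT17, KRT6A and KRT16 stayed called higher with the length relation divided out, at log2 fold changes of 0.17, 0.21 and 0.24, and KRT17 at 0.10 (adjusted p = 0.0404) by principal transcript.

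The simple epithelial keratins split, with KRT18 rising more than any other called keratin, KRT8 rising less, and KRT7 and KRT19 not called. KRT18 (ENSG00000111057, chromosome 12, 52948871 to 52952901, plus strand), the type I keratin of simple epithelia, was at 68.4, 66.7 and 73.1 FPKM in sgNC, against 112, 117 and 111 FPKM in the libraries labelled sgOTUD1. The gap between the groups was wide beside the spread within them, from 69.4 ± 3.30 to 113 ± 3.54 FPKM (SD, n = 3), or 1.63 times as high (log2 fold change 0.70, SE 0.044, limma adjusted p = 2.54e-05). KRT18 was called higher under every scaling tried and without any 1 library, at 0.45 with the length relation divided out.

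KRT8 (ENSG00000170421, chromosome 12, 52897187 to 52949954, minus strand), its type II partner, was at 115, 116 and 129 FPKM in sgNC, against 134, 146 and 141 FPKM in the libraries labelled sgOTUD1. The lowest library of the second group was just above the highest of the first (log2 fold change 0.22, SE 0.054, limma adjusted p = 0.0112). The call was lost with TPM (0.07, adjusted p = 0.220) and turned to -0.03 with a correction by the length of the principal transcript. That transcript has 2126 nt, against 6881 nt for all annotated exons of KRT8 together, the length that FPKM uses. KRT8 and KRT18 overlap head to head on opposite strands in 525 exonic nt, 16.3% of the KRT18 exon length and 7.63% of that of KRT8, and reads there cannot be told apart unless counting used strand.

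KRT19 (ENSG00000171345, chromosome 17, 41523617 to 41528308, minus strand), the smallest type I keratin and found in all urothelial layers, was at 1193, 1175 and 1322 FPKM in sgNC, against 1249.8, 1363 and 1341 FPKM in the libraries labelled sgOTUD1. The groups overlapped, since sgNC 3 lay within the range of the other group (log2 fold change 0.10, SE 0.055, limma adjusted p = 0.160). KRT7 (ENSG00000135480, chromosome 12, 52232520 to 52252186, plus strand), a type II keratin of glandular and urothelial cells, was at 312, 309.95 and 347 FPKM in sgNC, against 335, 355 and 348 FPKM in the libraries labelled sgOTUD1. It too overlapped through sgNC 3 (log2 fold change 0.10, SE 0.050, adjusted p = 0.130). Without sgNC 3 both were called higher, KRT19 at 0.15 (adjusted p = 0.0239) and KRT7 at 0.15 (adjusted p = 0.0109). With the length relation divided out KRT19 was called lower instead (-0.24, adjusted p = 0.00143), as were KRT19 (-0.28, adjusted p = 0.000621) and KRT7 (-0.21, adjusted p = 0.00209) with the correction by principal transcript. KRT7 was at -0.07 and not called with the length relation divided out. Neither direction holds for these genes across scalings, since TPM and limma-voom put both just below 0 as well.

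**Figure D3:**
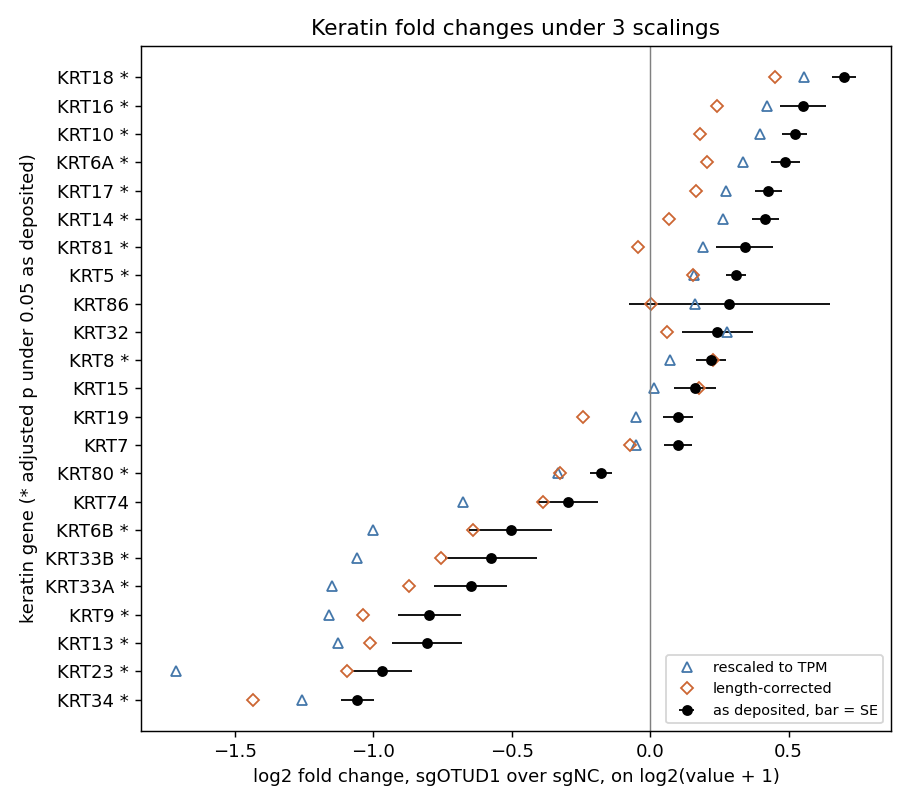
Log2 fold change of libraries labelled sgOTUD1 over sgNC for the 23 tested keratin genes, on log2(value + 1), from the deposited FPKM (black, bars are SE), after rescaling to TPM (blue triangles) and with the relation to exon length divided out (orange diamonds). KRT14 moves from 0.42 to 0.07 with the length relation divided out, and KRT19, KRT7 and KRT81 cross 0.

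Of the keratins of differentiated epidermis, KRT10 rose and KRT9 fell. KRT10 (ENSG00000186395, chromosome 17, 40818117 to 40822595, minus strand), the type I keratin of the suprabasal epidermis, was at 12.6, 13.5 and 12.5 FPKM in sgNC, against 18.7, 19.6 and 18.5 FPKM in the libraries labelled sgOTUD1. Each group was tight and they lay apart, from 12.9 ± 0.568 to 18.9 ± 0.585 FPKM (log2 fold change 0.52, SE 0.045, limma adjusted p = 9.12e-05). KRT10 was at 0.18 and still called (adjusted p = 0.0219) with the length relation divided out. Its partner KRT1 was not tested, with a mean of 0.0656 FPKM over the 6 libraries. KRT9, a keratin of palm and sole skin, fell from 3.47 ± 0.141 to 1.59 ± 0.385 FPKM, with ranges of 3.30 to 3.55 and 1.154 to 1.88 (log2 fold change -0.80, SE 0.11, limma adjusted p = 0.000872). KRT13, a type I keratin of mucosae and of the intermediate layer of the urothelium, fell from 4.18 ± 0.832 to 1.95 ± 0.236 FPKM, with ranges of 3.27 to 4.91 and 1.71 to 2.18 (log2 fold change -0.81, SE 0.13, limma adjusted p = 0.00144). Its partner KRT4 had a mean of 0.0353 FPKM and was not tested.

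Hair and nail keratins made up 17 members, of which 6 were tested, 1 was called higher and 3 lower (all genes, 31.2% and 24.7%). KRT34 (ENSG00000131737, chromosome 17, 41377650 to 41382403, minus strand), a type I hair keratin whose promoter is printed above, was at 21.0, 22.4 and 23.7 FPKM in sgNC, against 10.1, 10.9 and 9.74 FPKM in the libraries labelled sgOTUD1. All 3 of the latter were less than any sgNC library, with means of 22.4 ± 1.36 and 10.2 ± 0.576 FPKM (SD, n = 3). At -1.06 (SE 0.058, limma adjusted p = 1.62e-05), its log2 fold change was the most negative of the tested keratins on the log2(FPKM + 1) scale, which understates low genes. The plain ratio of means was 0.457 for KRT34 and lower for 4 less abundant keratins, KRT23 (0.222), KRT33B (0.399), KRT33A (0.405) and KRT6B (0.418). KRT34 stayed called lower under every scaling tried and without any 1 library.

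The neighbours KRT33A and KRT33B, also type I hair keratins, were far less abundant. KRT33A fell from 1.52 ± 0.241 to 0.615 ± 0.236 FPKM, with ranges of 1.38 to 1.80 and 0.383 to 0.855 (log2 fold change -0.65, SE 0.13, limma adjusted p = 0.00497). KRT33B fell from 1.27 ± 0.488 to 0.505 ± 0.141 FPKM, with ranges of 0.878 to 1.81 and 0.343 to 0.598 (log2 fold change -0.57, SE 0.17, limma adjusted p = 0.0217). The KRT33B call was lost without sgOTUD1 3 (adjusted p = 0.0669) and with no minimum on FPKM (0.0557). These copies share 5.22% and 5.57% of their 100-base windows with other genes, so their reads may be divided unevenly. KRT32, a hair cuticle keratin, had group means of 0.666 ± 0.0291 and 0.987 ± 0.327 FPKM and was not called (log2 fold change 0.24, adjusted p = 0.149), although its groups did not overlap.

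KRT81 (ENSG00000205426, chromosome 12, 52285913 to 52291534, minus strand), a type II hair keratin also found in carcinoma cells, was the hair keratin with the highest level here. It was at 239, 221 and 266 FPKM in sgNC, against 271, 343 and 309 FPKM in the libraries labelled sgOTUD1. The groups were apart by a narrow gap between sgNC 3 and sgOTUD1 1, with means of 242 ± 22.9 and 308 ± 35.8 FPKM (log2 fold change 0.34, SE 0.10, limma adjusted p = 0.0283). This call was lost without sgNC 1 (adjusted p = 0.0769), sgNC 2 (0.0789), sgOTUD1 2 (0.0649) or sgOTUD1 3 (0.0719). It was also lost with median-of-ratios rescaling (0.0530), TPM (0.120), limma-voom (0.175) or no minimum on FPKM (0.0624). With the length relation divided out the value was -0.04, and 0.06 by principal transcript.

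KRT86 (ENSG00000170442), a near copy of KRT81 whose gene spans it, was at 3.98, 5.58 and 6.23 FPKM in sgNC, against 8.93, 3.29 and 9.09 FPKM in the libraries labelled sgOTUD1. Library sgOTUD1 2, the highest of its group for KRT81, was the lowest of all 6 for KRT86. KRT86 was not called (log2 fold change 0.29, SE 0.36, limma adjusted p = 0.537), and without that library it was (0.69, adjusted p = 0.0163). Over all 6 libraries the value was 0.0038 with the length relation divided out. Of its 100-base windows 25.8% occur in other genes, mostly KRT81, and 29.7% of those of KRT81 do, so the division of reads between the copies is uncertain. KRT74, an inner root sheath keratin, had group means of 0.654 ± 0.0762 and 0.347 ± 0.0906 FPKM and was not called (log2 fold change -0.30, adjusted p = 0.0525), while median-of-ratios rescaling, TPM, limma-voom and both length corrections called it lower.

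The remaining tested members were both lower. KRT80 (ENSG00000167767, chromosome 12, 52168996 to 52192000, minus strand), a type II keratin of desmosomes and differentiating epithelium, was at 35.9, 36.1 and 37.7 FPKM in sgNC, against 31.0, 33.5 and 32.2 FPKM in the libraries labelled sgOTUD1. The drop was small but every library of the second group was under the first, from 36.6 ± 1.01 to 32.2 ± 1.22 FPKM (log2 fold change -0.18, SE 0.041, limma adjusted p = 0.00847). It was lower still with the length relation divided out (-0.33), TPM (-0.33) and limma-voom (-0.31). KRT23, a type I keratin reported in colon and liver carcinoma, fell from 1.67 ± 0.106 to 0.372 ± 0.159 FPKM, with ranges of 1.55 to 1.75 and 0.253 to 0.552 (log2 fold change -0.97, SE 0.11, limma adjusted p = 0.000289). The other 32 keratin genes were not tested. KRT20, the umbrella cell keratin, was among them at a mean of 0.170 FPKM. Of the 32, 10 were at 0 in all 6 libraries, and the highest single value of the rest was 0.624 FPKM, or 32 reads, for KRT6C.

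Replicates of a group ranked alike across the keratins. Over the 15 members of at least 5 FPKM, sgNC 3 was the highest of its group for 14 and sgOTUD1 2 the highest of its group for 13, while sgOTUD1 1 was the lowest for 11. The coefficient of variation within a group lay between 1.72% and 12.2% for 14 of these genes, and was 22.0% and 46.5% for KRT86. Within a group, most keratins therefore ranked the libraries in a similar order.

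Summed over the 55 genes, keratin transcripts reached 6000.1, 5934 and 6536 FPKM in sgNC, against 7355, 7928 and 7708 FPKM in the libraries labelled sgOTUD1. The second group was higher throughout, with a mean 1.24 times that of sgNC. As a share of all FPKM in a library, the keratins took 2.30% ± 0.0998 and 2.58% ± 0.0664 (SD, n = 3; sgNC first), and as a share of reads 2.07% ± 0.0868 and 2.35% ± 0.0706. These shares do not depend on the scaling between libraries, but they do depend on the other genes in the total. That total includes the 13 mitochondrial mRNAs, which summed to 32148 to 34673 FPKM in sgNC and 17268 to 18199 under the sgOTUD1 label. Shares without these mRNAs were not computed, so the part of their drop in the keratin shares was not tested. Type II over type I FPKM, summed over all members, was 0.567 ± 0.0113 and 0.557 ± 0.0113, a difference smaller than the spread within a group.

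The make-up of that pool changed between classes. Stress or activation keratins went from 34.7% ± 0.0969 to 37.7% ± 0.155 of all keratin FPKM, and simple epithelial keratins from 28.3% ± 0.282 to 25.02% ± 0.149. Both shifts were larger than the spread between replicates. Basal keratins held 31.6% ± 0.502 and 32.3% ± 0.445, and hair and nail keratins 4.44% ± 0.173 and 4.26% ± 0.273, with ranges that overlapped in both classes. As sums, the stress class was 1.35 times as high, the basal class 1.27 times and the simple class 1.10 times, the last being dominated by KRT19 and KRT7, with overlapping groups. With the length relation divided out, the stress class was 1.13 times as high, the basal class 1.09 times, and the simple class turned to 0.906 times, now below sgNC in every library. The sum of all 55 genes was then 1.04 times as high, with groups that overlapped.

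**Figure D4:**
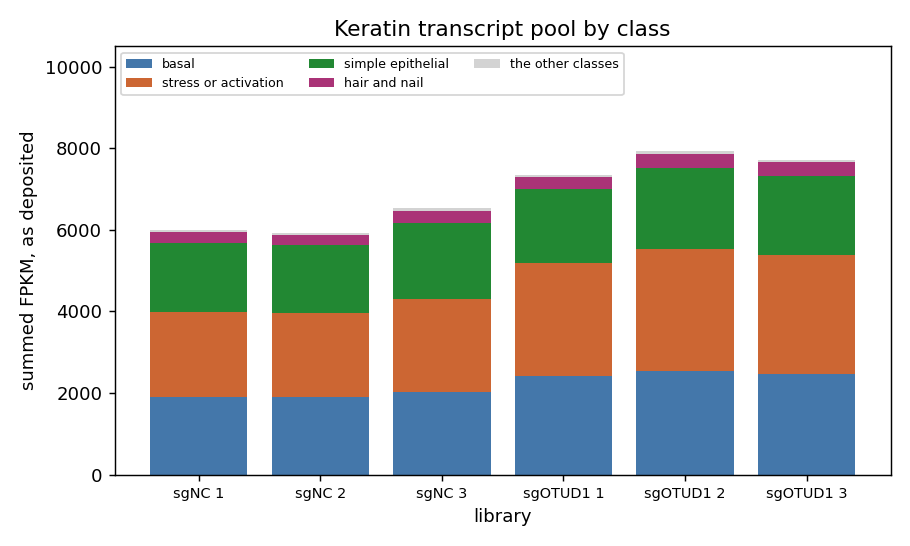
Summed FPKM of the keratin genes in each library, stacked by class, with the bars starting at 0. The 3 libraries labelled sgOTUD1 reach 7355 to 7928 FPKM against 5934 to 6536 in sgNC, with mean layers of 2137 and 2891 FPKM for the stress or activation keratins (orange) and 1743 and 1918 FPKM for the simple epithelial ones (green), sgNC first.

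Since keratins assemble in pairs, the ratio of a type II gene to its type I partner was formed within each library for the 6 pairs in which both partners had a mean of at least 0.5 FPKM. A ratio within a library does not depend on the scaling between libraries, although its absolute value depends on the exon lengths used. The p-values are from two-sided exact permutation tests, whose smallest possible value is 0.1, and no pair could therefore pass 0.05. KRT8:KRT18 was 1.69, 1.74 and 1.77 in sgNC, against 1.201, 1.24 and 1.27 in the libraries labelled sgOTUD1. The groups were far apart beside their spread, at 1.73 ± 0.0427 and 1.24 ± 0.0364 (SD, n = 3), a log2 difference of -0.49 (SE 0.032, exact permutation p = 0.1, adjusted over the 6 pairs 0.15). It remained -0.23 with the length relation divided out and -0.39 with the correction by principal transcript.

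The next 3 pairs moved less, and each turned its sign with the length relation divided out. KRT5:KRT14 was 1.79, 1.66 and 1.63 in sgNC, against 1.59, 1.59 and 1.54 in the libraries labelled sgOTUD1, with no overlap (log2 difference -0.10, SE 0.045, exact permutation p = 0.1, adjusted 0.15). Without sgNC 1 it was -0.06, and with the length relation divided out 0.09. KRT5:KRT15 had means of 29.3 ± 0.816 and 32.5 ± 2.99, again apart (log2 difference 0.15, exact permutation p = 0.1, adjusted 0.15), fell to 0.07 without sgOTUD1 1 and turned to -0.03 with the length relation divided out. KRT7:KRT19 stood at 0.263 ± 0.00103 and 0.263 ± 0.00463 (log2 difference -0.00070, SE 0.015, exact permutation p = 1), the pair whose ratio moved least in the deposited values, though the length-corrected difference was 0.17.

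KRT6A:KRT16 had means of 18.8 ± 0.519 and 17.7 ± 1.87 with overlapping groups (log2 difference -0.09, exact permutation p = 0.5, adjusted 0.6), -0.16 without sgOTUD1 1 and -0.0083 without sgOTUD1 3. KRT6B:KRT17 had a log2 difference of -1.78 (SE 0.53, exact permutation p = 0.1, adjusted 0.15). Its partner KRT6B was at only 1.02 and 0.426 FPKM (sgNC first) and shares windows with its copies. KRT6B passed the minimum only through its sgNC libraries, so the direction of this pair was favoured in advance. The 4 remaining pairs, KRT6C:KRT16, KRT1:KRT10, KRT4:KRT13 and KRT8:KRT20, each had a partner under the minimum and were not compared.

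**Figure D5:**
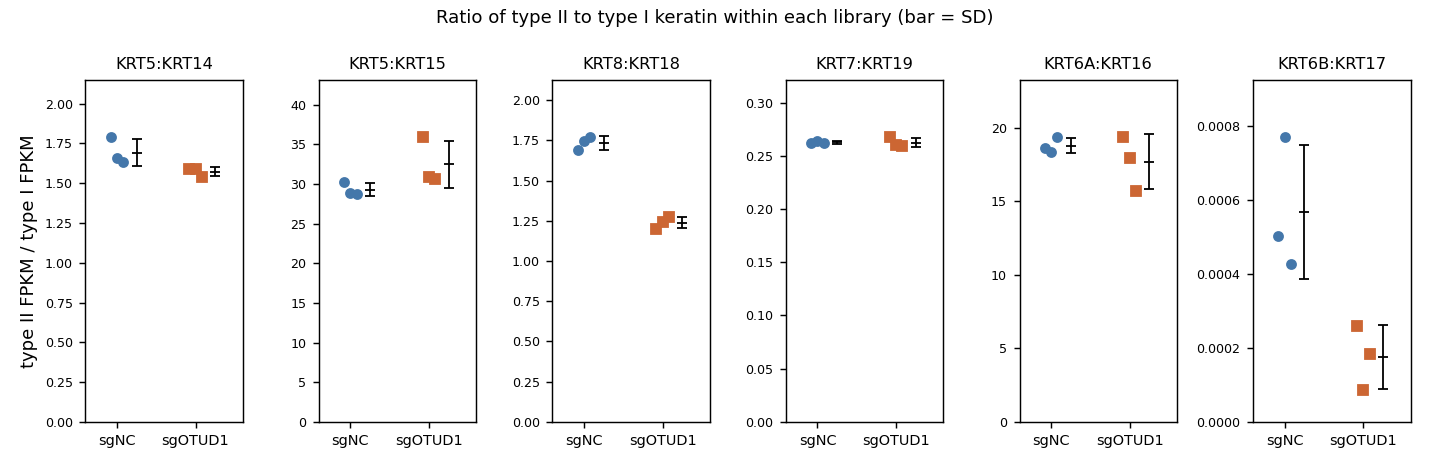
Ratio of type II to type I FPKM within each library for 6 keratin pairs, each panel from 0 on its own linear axis, with circles for sgNC, squares for the libraries labelled sgOTUD1 and bars for mean and SD. KRT8:KRT18 drops from 1.73 to 1.24 with tight groups, and KRT7:KRT19 stays at 0.263 in both.

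Genes that bind keratins or share their filament class were called in both directions. Of 18 tested linkers and keratin-binding genes, 4 were called higher and 11 lower (median log2 fold change -0.28; all genes, 31.2% higher and 24.7% lower). PLEC, the plectin gene that ties keratin filaments to hemidesmosomes, fell from 116 ± 4.07 to 60.5 ± 2.40 FPKM, and DSP, desmoplakin of the desmosome, from 51.4 ± 1.69 to 32.6 ± 0.428 FPKM. PNN, a splicing-associated protein also described at desmosomes, rose from 39.6 to 74.4 FPKM, and SFN, a 14-3-3 protein that binds KRT17 and KRT18, from 739 to 1101 FPKM. PLEC and DSP (log2 fold changes -0.93 and -0.64) have exon lengths of 16991 and 10093 nt, in the longest bin. The median of protein-coding genes in that bin was -0.15. PNN has 4201 nt, in the middle bin, and SFN 1320 nt, in the shortest. The part of exon length in these changes was not tested.

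Other intermediate filament genes had 3 higher and 4 lower of 12 tested (median -0.11), shares to be read against the same 31.2% and 24.7%. VIM, vimentin of mesenchymal cells, rose from 33.7 ± 1.12 to 48.2 ± 1.46 FPKM and the neurofilament gene NEFM from 3.81 to 8.31 FPKM. The nuclear lamin genes LMNB1 and LMNB2 fell, from 43.9 to 32.6 and from 56.2 to 44.4 FPKM. Of 17 tested genes of squamous differentiation and the cornified envelope, 7 were called higher and 4 lower (median -0.06; all genes, 31.2% and 24.7%). CSTB, a cathepsin inhibitor, rose from 24.6 to 46.5 FPKM and the serpin gene SERPINB5 from 27.4 to 38.1 FPKM. DSG3, a desmosomal cadherin of basal layers, fell from 27.9 to 21.2 FPKM and FLG, filaggrin, which bundles keratin filaments in the cornified layer, from 1.53 to 0.667 FPKM.

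Transcription factors described as regulators of keratin genes had 15 higher and 9 lower of 27 tested (median 0.23; all genes, 31.2% and 24.7%). FOSL1, an AP-1 subunit, rose from 109 ± 6.04 to 289.9 ± 8.84 FPKM, and OVOL1, a zinc finger factor of epidermal differentiation, from 2.53 to 9.36 FPKM. NOTCH1 fell from 18.5 to 13.1 FPKM and the grainyhead factor GRHL2 from 15.3 to 10.6 FPKM. Of 136 keratin pseudogenes in the table, 8 were tested and the 1 call was for KRT16P4, lower, from 1.97 to 0.994 FPKM. KRT16P6, which resembles KRT16, had 21.0 and 19.6 FPKM and was not called (limma adjusted p = 0.152), while KRT16 rose. KRT7-AS, which overlaps KRT7 in 282 exonic nt on the opposite strand (6.89% of the KRT7 exon length), went from 10.4 to 21.7 FPKM and was not part of the test lists.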

How the data were processed

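RNA sequencing of total RNA from 6 libraries was used, grouped by the titles. Per the file headers the authors deposited FPKM for each gene and library. Build hg38, DESeq2 1.20.0 and featureCounts 1.5.0-p3 are listed in the submitters' processing notes. Aligner and strandedness: not given in the sources used here. Multiplied by the GENCODE 29 union exon length, 100% of values above 0 were whole multiples of 1 number per library (tolerance 0.001), which gave reads per gene. That number implies a scale of 1.04 to 1.06 times the library's reads in sgNC and of 0.957 to 0.969 times in the libraries labelled sgOTUD1, so the deposited values carry a scaling between libraries. Precision is limited by these 16697370 to 17191933 reads per library.

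limma 3.58.1 in R 4.3.3 (lmFit, eBayes with trend and robust) was run on log2(FPKM + 1) as a two-sided test of group, without further terms, on the 14658 genes of mean FPKM of at least 0.5, with Benjamini-Hochberg adjustment over all and a call at an adjusted p under 0.05. Fold changes on that scale understate the change of low genes. No count test was the main test. Other steps used SciPy 1.17.1, NumPy 2.4.6, pandas 2.3.3 and Python 3.11.15. The fit was also run on simulated reads of 14658 genes, with 50 genes changed at each of 4 folds. It called 22% of 1.25-fold, 58% of 1.5-fold, 94% of 2-fold and 78% of 4-fold changes in the right direction. Of its calls 10% were false, so small changes can be missed and some calls can be wrong. The simulation gave every gene the same variability, held no relation to exon length and changed few genes. In the data 55.9% of genes tested were called, so the simulated shares do not carry over to the calls here.

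Members and lists were chosen with earlier results of these data known. Every keratin gene of mean FPKM of at least 0.5 is named, with values per library from 5 FPKM. Of each other list, up to 2 genes higher and 2 lower with the smallest adjusted p are named. The marker lists are an exception, where single genes are named without such a rule. KRT16P6 and KRT7-AS were chosen after their values were seen. Alternatives were leaving out each replicate, a replicate block, no minimum, a minimum mean of 5 FPKM, median-of-ratios rescaling, TPM, a pseudocount of 0.1, limma without trend and robust options, stricter thresholds, limma-voom on recovered reads, and a spline (4 degrees of freedom) of log2 exon length divided out. The same spline on principal transcript length, and class sums with either correction, were added after seeing the data. No sample was left out.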

Additional observations from a re-analysis of the deposited data

How the results depend on the processing

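For 13 of the 23 tested keratins the call at an adjusted p under 0.05 was the same under every scaling, pseudocount, minimum, block and left-out library in which the gene was tested, stricter thresholds aside, and of 360 recomputed keratin values 319 kept direction and side of the threshold, 20 lost the call, 11 gained it and 10 reversed. Leaving out 1 library gave 8 to 11 keratins higher and 6 to 8 lower. A change of more than 1.5-fold on the log2(FPKM + 1) scale left 1 higher (KRT18, at 1.63 times by plain ratio) and 5 lower. By the plain ratio of means the called KRT16 (1.504), KRT33B (0.399) and KRT6B (0.418) also pass 1.5-fold. A minimum of 5 FPKM left 2 lower, since fewer genes were tested. The share of all calls that were higher was 55.9% as deposited, 49.0% with median-of-ratios rescaling, 38.2% with TPM, 39.5% with limma-voom, 40.2% with the length correction and 38.7% with the principal-transcript one. TPM moved the median of all genes by -0.13 and limma-voom by -0.12.

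Reversed values were KRT19 with TPM (-0.051), limma-voom (-0.031), length (-0.24) and principal-transcript length (-0.28); KRT7 likewise (-0.052, -0.032, -0.073 and -0.21); KRT81 with length (-0.042); and KRT8 with principal-transcript length (-0.027). KRT5:KRT14 turned to 0.085 and 0.036 with the length corrections, KRT5:KRT15 to -0.028 and -0.13, KRT7:KRT19 to 0.17 and 0.068, and KRT6A:KRT16 to 0.020 with the second. Leaving out 1 library put KRT7:KRT19 between -0.0153 and 0.0075. Beyond the alternatives' own construction, the cause was not tested.

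OTUD1 was at 0.15 with median-of-ratios rescaling (limma adjusted p = 0.0524), 0.061 with TPM, 0.082 with limma-voom, 0.074 with principal-transcript length and -0.062 with length, none of them called, and at 0.17 to 0.24 without 1 library.

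Same-numbered libraries did not deviate together (r = 0.0016, -0.0513 and -0.0007), and not every library went best with its own number. With a replicate block 8 keratins were higher and 7 lower, with KRT81 (adjusted p = 0.0577) and KRT6B (0.0580) not called. Low keratins rest on few reads, which limits what can be seen below 0.5 FPKM.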
